A study of Mus musculus with 34 samples.

Results

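The genes described here are 9 transcription factors of the cortical projection neuron, the excitatory neuron that sends its axon out of its own patch of cortex. They are Tbr1, Fezf2 and Bcl11b, which mark deep layers, Cux1, Cux2 and Rorb, which mark upper layers, and Neurod6, Neurod2 and Emx1, which are used by projection neurons of both. Members were found by matching the RefSeq accession that the array files give each probe, which yielded 13 probes of the 9 genes. The whole array held 55681 probes that are not controls, of which 26582 could be named, for 20145 genes. Male C57BL/6J mice, 3 in all and 3 days old, gave 1 brain each, and every brain was sliced along a single body axis into 15 coronal fractions of the first mouse, 8 horizontal fractions of the second and 11 sagittal fractions of the third. A cut fraction was 500 μm thick, and sagittal fractions 1 and 11 each pooled 2 of them. Each fraction was measured on 1 array, so no fraction has a replicate, a plane cannot be told apart from its mouse, and every p-value below speaks of positions within 1 brain. The labels name no transgene and no treatment for any group, and do not state from which pole of the brain the fractions are counted.

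In the developing cortex, projection neurons are born from progenitors that express Emx1, deep layers before upper layers. Tbr1 specifies corticothalamic neurons of layer VI, Fezf2 and Bcl11b together direct the subcerebral neurons of layer V, Cux1 and Cux2 shape dendrites and synapses in layers II to IV, and Rorb marks layer IV. Neurod2 and Neurod6 are basic helix-loop-helix factors that drive the differentiation of projection neurons in every layer. Several of the 9 genes are used outside the cortex as well. Bcl11b is a marker of striatal projection neurons, Rorb is found in the thalamus, Neurod2 in the cerebellum and Tbr1 in the olfactory bulb. A fraction is a slab that holds all layers and many regions, so that these values describe where along an axis a gene was abundant and not in which layer, and fewer cells of a type cannot be told apart from less RNA per cell.

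Values are the log2 of the background-subtracted signal less the log2 75th percentile of the array, called the log2 normalized signal. Where a gene had several probes, the one with the highest mean signal stands for the gene. A probe was tested if it stood well above background somewhere in every plane, as all 13 did, and 34186 probes passed this filter. Marker lists gave landmarks along the axes. In the coronal series the mean of the cerebellum list was highest in fraction 1, that of the hindbrain list in fraction 3, those of the thalamus and hypothalamus lists in fraction 8, that of the striatum list in fraction 11 and that of the olfactory bulb list in fraction 15, where all 9 of its measured genes peaked. In the horizontal series the hypothalamus list was highest in fraction 8. In the sagittal series the lists of the cerebellum, hindbrain, thalamus and hypothalamus were all highest in fraction 6. Between 29598 and 37091 spots were well above background on an array, and the log2 75th percentile before scaling lay between 8.07 and 9.18. Precision is limited by how few arrays there are.

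Along the coronal axis the deep layer genes and the upper layer genes differed most. Tbr1 and Fezf2 were low in the first 4 fractions and high from fraction 5 on, while Cux1, Cux2 and Rorb stayed within 1.70 log2 units over all 15 fractions. Slopes were taken over the fraction number with limma, and 7 of the 9 genes rose at an adjusted p under 0.05. In every plane the slope fits treated neighbouring fractions of a brain as independent, which they are not. Standard errors and p-values of slopes may therefore be too small. Among all probes tested 18.9% rose and 9.44% fell.

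Tbr1 was lowest in coronal fraction 1 at -4.15, had a median of 4.06 and was highest in fraction 13 at 5.41. Its signal went from -1.52 in fraction 4 to 2.40 in fraction 5, a 15.2-fold step between neighbouring fractions. The first 4 fractions did not overlap with the other 11. Over the series Tbr1 rose by 0.59 ± 0.09 log2 units per fraction (SE, n = 15 fractions, limma adjusted p = 2.83e-04). The second Tbr1 probe was not well above background in coronal fractions 1 to 4, and was at least 13.3-fold higher in the other 11 than the bound those 4 give.

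Fezf2 was not well above background in coronal fractions 1 to 4, and was so in the 11 fractions after them. In those 11 its mean log2 normalized signal was 0.34, with the highest value of 1.54 in fraction 13 and the lowest of -0.64 in fraction 15. The undetected fractions give only a bound, so Fezf2 was at least 49.1-fold higher in the detected fractions. The bound sets the mean of the detected fractions against, on each undetected array, the higher of the probe's own signal and the lowest signal of any probe well above background. The fitted slope was 0.60 ± 0.12 log2 units per fraction (limma adjusted p = 0.00283), and it depends on values below background and was 0.27 after a normexp background correction.

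Bcl11b moved by smaller steps. Its signal was lowest in fraction 2 at 0.89, had a median of 2.49 and was highest in fraction 11 at 4.59, and fractions 10, 11 and 12 were the 3 highest. It rose by 0.24 ± 0.03 per fraction (limma adjusted p = 2.49e-04), and its second probe rose by 0.22 ± 0.03. The step from fraction 4 to 5, so large for Tbr1 and Fezf2, was 0.51 log2 units for Bcl11b. From fraction 8 to 9 Bcl11b went up by 0.70 log2 units, while Tbr1 went up by 0.30 and Fezf2 by 0.05.

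The probe that stands for Bcl11b peaked in the same coronal fraction as the striatum list, while its second probe was highest in fraction 12 at 3.64, next to 3.54 in fraction 11. In fraction 11 the striatum list had its highest mean, 1.51 log2 units above the medians of its genes, and 7 of its 12 genes peaked there, among them the dopamine receptors Drd1 and Drd2 and the adenosine receptor Adora2a. Bcl11b followed the mean of the striatum list with r = 0.697 over the coronal, 0.785 over the horizontal and 0.543 over the sagittal fractions. With the list of cortical excitatory neurons in general Bcl11b had r = 0.829, -0.453 and 0.682, and with the olfactory bulb list it had 0.711 over the horizontal fractions. The correlations with the striatum list were 0.409, 0.08 and -0.152 for Tbr1, and 0.404, -0.789 and 0.001 for Fezf2. These are descriptions over neighbouring fractions of 1 mouse each, and the part of striatal tissue in the Bcl11b signal was not tested.

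The upper layer genes were nearly level along the coronal axis. Cux1 lay between 3.40 in fraction 1 and 4.23 in fraction 12, with a median of 3.65, and rose by 0.05 ± 0.01 per fraction (limma adjusted p = 0.00348). Its other 2 probes had slopes of 0.03 ± 0.02 (adjusted p = 0.370) and 0.00 ± 0.02 (adjusted p = 0.895), so the rise rests on 1 probe. Over the 34 fractions these probes were correlated with the first with r = 0.353 and 0.178. The Cux1 locus also gives rise to a Golgi protein, and which product each probe reads was not settled here.

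Cux2 lay between -2.25 in coronal fraction 1 and -1.20 in fraction 13, with a median of -1.64, and its slope was 0.03 ± 0.01 (limma adjusted p = 0.216). Fraction 15, at -2.16, was the next lowest. Without it the slope of Cux2 was 0.05 (adjusted p = 0.00714), so that this call depends on 1 fraction. Rorb lay between -1.21 in fraction 15 and 0.49 in fraction 13, with a median of 0.08 and a slope of -0.01 ± 0.02 (adjusted p = 0.883). The drop of Rorb from fraction 13 to fraction 15 was 1.70 log2 units, which spans its whole coronal range.

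Of the genes of both layers, Emx1 and Neurod6 were low in the first coronal fractions, while early values of Neurod2 overlapped with later ones. Emx1, the homeobox gene of cortical progenitors and projection neurons, was not well above background in coronal fractions 1 to 3. It was at least 46.0-fold higher in the other 12 fractions, by the same bound as for Fezf2. Emx1 had its highest coronal value of 1.52 in fraction 15, unlike the other 8 genes, which peaked between fractions 11 and 13. Its fitted slope was 0.59 ± 0.08 (limma adjusted p = 1.57e-04), which depends on values below background and was 0.33 after a normexp background correction.

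Neurod6 was lowest at 0.19 in fraction 3, had a median of 3.11 and was highest at 4.47 in fraction 13, and it rose by 0.26 ± 0.05 per fraction (limma adjusted p = 0.00311). Neurod2 was lowest at 2.20 in fraction 4, had a median of 3.88 and was highest at 5.58 in fraction 13, and it rose by 0.15 ± 0.04 (adjusted p = 0.0112). Neurod6 was between 0.19 and 0.51 in the first 4 fractions. Neurod2 held values of 2.65, 3.41 and 3.17 in the first 3 fractions, which overlapped with its value of 3.01 in fraction 5 and 3.10 in fraction 15. The slope of Neurod6 exceeded that of Neurod2 by 0.11 ± 0.04 log2 units per fraction.

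The last coronal fractions broke the rise for most members. Fraction 15 less fraction 13 came to -2.67 log2 units for Neurod6, -2.48 for Neurod2, -2.18 for Fezf2, -1.70 for Rorb, -1.36 for Tbr1, -0.96 for Cux2, -0.84 for Bcl11b and -0.25 for Cux1, against 0.15 for Emx1. Over the same 3 fractions the mean of the olfactory bulb list went from 1.17 to 3.86 log2 units above the medians of its genes. The part of olfactory bulb tissue in these drops was not tested.

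Position and slide were partly tied in the coronal series, in which slide 2 held fractions 1 to 8, slide 3 held fractions 9 to 11 and 13 to 15, and slide 5 held fraction 12. With slide as a term the number of probes called fell to 251, and of the 9 genes only Emx1 kept its call (slope 0.78, adjusted p = 0.0491). The slopes of Tbr1 (0.76, adjusted p = 0.0787), Fezf2 (0.79, 0.201) and Neurod6 (0.28, 0.315) were then no smaller than without the term, while those of Bcl11b (0.12, 0.412), Neurod2 (0.08, 0.729) and Cux1 (0.03, 0.601) were smaller. Within slide 2 Tbr1, Fezf2, Bcl11b, Neurod6 and Emx1 kept theirs, Cux2 passed with a slope of 0.08 (adjusted p = 0.0293), and Cux1 (slope 0.02, adjusted p = 0.548) and Neurod2 (slope 0.17, adjusted p = 0.118) did not pass. Within slide 3 the slopes of Bcl11b, Fezf2, Neurod6 and Neurod2 were below 0, at -0.07, -0.11, -0.10 and -0.07 per fraction, and none of the 9 genes was called. Over fractions 5 to 15 alone Fezf2, Neurod6 and Neurod2 were no longer called (slopes of 0.04, 0.07 and 0.11). Tbr1, Emx1 and Bcl11b kept their calls with smaller slopes of 0.20, 0.22 and 0.19, and Cux1 kept its call with a slope of 0.06.

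**Figure D1:**
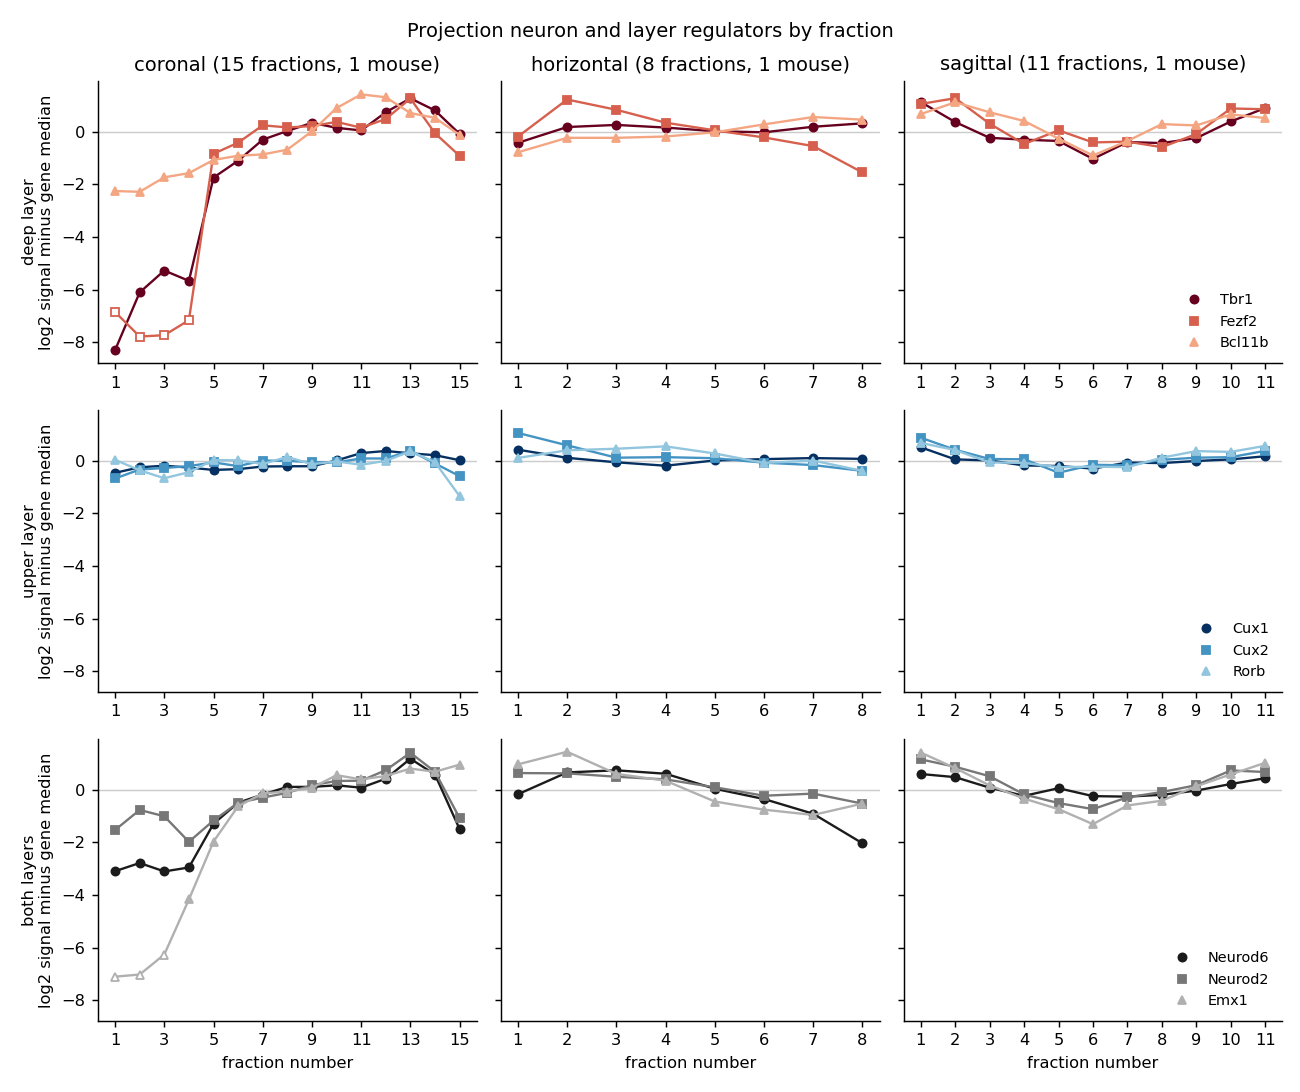
Log2 normalized signal of each gene, less the gene's median over the 34 fractions, against fraction number in the 3 planes. Open symbols are fractions in which the probe was not well above background, which are coronal 1 to 4 for Fezf2 and coronal 1 to 3 for Emx1. Tbr1 spans 9.56 log2 units along the coronal axis, the lowest values of Fezf2 and Emx1 are below background, and the 3 upper layer genes stay within 1.70.

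To show the start sites of the paired helix-loop-helix genes, which rose together along the coronal and sagittal axes, the 250 bases upstream of each are given below. The sequences are from RefSeq on GRCm38.p6, read 5′ to 3′ on the minus strand for both, chr6:55681264-55681513 for Neurod6 and chr11:98329646-98329895 for Neurod2. Capitals mark the E-box CANNTG, the motif that basic helix-loop-helix factors bind, which is its own reverse complement and was searched on both strands at once.
Neurod6: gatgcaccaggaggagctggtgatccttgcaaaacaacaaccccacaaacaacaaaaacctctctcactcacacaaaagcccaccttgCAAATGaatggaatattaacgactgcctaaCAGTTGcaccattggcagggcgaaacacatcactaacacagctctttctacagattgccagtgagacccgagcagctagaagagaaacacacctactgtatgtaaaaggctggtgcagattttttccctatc
Neurod2: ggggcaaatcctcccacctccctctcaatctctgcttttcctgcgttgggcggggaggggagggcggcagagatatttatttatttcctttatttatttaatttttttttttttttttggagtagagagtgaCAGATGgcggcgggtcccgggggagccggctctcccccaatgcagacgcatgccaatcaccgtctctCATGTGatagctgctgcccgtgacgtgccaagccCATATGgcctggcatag
Neurod6 had 2 matches and Neurod2 had 3, of which 1 was the form CATCTG or CAGATG favoured by the NeuroD family. Of 32851 upstream windows of this length, 66.2% held CANNTG and 14.4% held CATCTG or CAGATG, so the E-box was common. A match is a description of the letters and not a site.

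The horizontal series gave a different order of the genes. Bcl11b rose from fraction 1 to 8, Neurod2, Cux2 and Emx1 fell, and the other 5 genes did not pass the test. Of the 34186 probes 0.959% rose and 0.804% fell in this plane, so that 1 and 3 of the 9 genes stand beside a low background of calls. With 8 fractions these calls were fragile. Leaving out 1 fraction at a time, Neurod2 was called in 4 of 8 fits, Bcl11b in 2, and Cux2 and Emx1 in 1 each.

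Bcl11b was lowest in horizontal fraction 1 at 2.39, had a median of 3.07 and was highest in fraction 7 at 3.73. It rose by 0.17 ± 0.03 per fraction (n = 8 fractions, limma adjusted p = 0.0236), and its second probe rose by the same 0.17 ± 0.03. The striatum list had horizontal means of 0.70 in fraction 6, where 6 of its 12 genes peaked, and 0.71 in fraction 7. The call was lost without fraction 1, 3, 5, 6, 7 or 8, with adjusted p-values up to 0.0943.

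Tbr1 and Fezf2, the other deep layer genes, parted in this plane. Tbr1 was lowest in fraction 1 at 3.72 and between 4.12 and 4.46 in the other 7, with a slope of 0.05 ± 0.03 (limma adjusted p = 0.469). Fezf2 went from 0.09 in fraction 1 to its highest value of 1.50 in fraction 2 and then down in every step to -1.27 in fraction 8, with a slope of -0.26 ± 0.08 (adjusted p = 0.169). Without fraction 1 the slope of Fezf2 was -0.42 (adjusted p = 0.00991). Fezf2 and Tbr1 were correlated with r = 0.955 over the coronal fractions and -0.016 over the horizontal ones.

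Of the upper layer genes Cux2 had the clearest horizontal order. It was highest in fraction 1 at -0.52, had a median of -1.47 and was lowest in fraction 8 at -1.96, and it fell by 0.17 ± 0.03 per fraction (limma adjusted p = 0.0366). Only without fraction 3 did it keep this call. Cux1 was also highest in fraction 1 at 4.28, lay between 3.67 and 3.97 elsewhere, and had a slope of -0.02 ± 0.03 (adjusted p = 0.732). Rorb peaked at 0.68 in fraction 4, was lowest at -0.25 in fraction 8, and had a slope of -0.09 ± 0.04 (adjusted p = 0.285).

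Neurod2 was highest in fraction 1 at 4.81, had a median of 4.42 and was lowest in fraction 8 at 3.65, and it fell by 0.17 ± 0.02 per fraction (limma adjusted p = 0.0199). Without fraction 2, 6, 7 or 8 it missed the threshold, with adjusted p-values up to 0.0691. Emx1 was highest in fraction 2 at 2.01, had a median of 0.52 and was lowest in fraction 7 at -0.39, and it fell by 0.33 ± 0.06 (adjusted p = 0.0331), a call kept only without fraction 8. Neurod6 peaked at 4.03 in fraction 3 and was lowest at 1.26 in fraction 8, with a slope of -0.29 ± 0.09 (adjusted p = 0.148). Without fraction 1 its slope was -0.44 (adjusted p = 0.0299). Slide 1 held 6 of the 8 fractions and slide 5 held fractions 3 and 4. Within slide 1 Bcl11b (slope 0.17, adjusted p = 0.0587) and Emx1 (slope -0.32, adjusted p = 0.0787) missed the threshold. A curve with a quadratic term passed the test for Neurod6 (adjusted p = 0.0119).

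**Figure D2:**
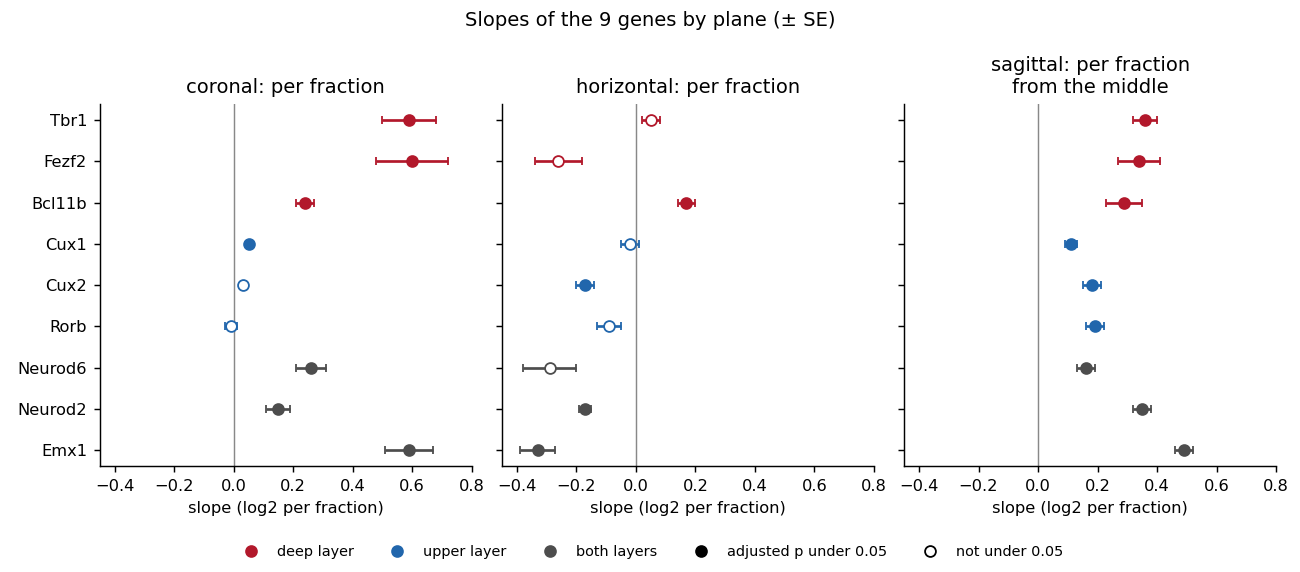
Slope of each gene's log2 normalized signal per fraction in the coronal and horizontal series, and per fraction away from fraction 6 in the sagittal series, with the standard error from limma. Filled points passed the test (adjusted p under 0.05), 7 genes in the coronal, 4 in the horizontal and 9 in the sagittal series.

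In the sagittal series, which was cut from side to side, all 9 genes rose with the distance from fraction 6, the middle of the 11 by count. For Cux1 the probes other than the one that stands for the gene did not pass. Of all probes tested 18.3% rose with the distance and 9.97% fell. Emx1 had the steepest slope and Cux1 the flattest. Every gene kept its call and its direction when any 1 of the 11 fractions was left out.

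Emx1 was lowest in fraction 6 at -0.74, had a median of 0.70 and was highest in fraction 1 at 1.98, and it rose by 0.49 ± 0.03 log2 units per fraction of distance (n = 11 fractions, limma adjusted p = 1.05e-05). Neurod2 was lowest in fraction 6 at 3.44, had a median of 4.35 and was highest in fraction 1 at 5.33, and it rose by 0.35 ± 0.03 (adjusted p = 9.97e-05). Both climbed at each step away from the middle on the low-numbered side. Neurod6 was lowest in fraction 7 at 3.03 and highest in fraction 1 at 3.89, and it rose by 0.16 ± 0.03 (adjusted p = 0.00315). The slope of Neurod6 was 0.19 ± 0.04 below that of Neurod2, the opposite order to that of the coronal series.

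Among the deep layer genes, Tbr1 was lowest in fraction 6 at 3.11, had a median of 3.90 and was highest in fraction 1 at 5.27, and it rose by 0.36 ± 0.04 (limma adjusted p = 3.36e-04). Fezf2 was lowest in fraction 8 at -0.31, had a median of 0.33 and was highest in fraction 2 at 1.55, and it rose by 0.34 ± 0.07 (adjusted p = 0.00469). Bcl11b was lowest in fraction 6 at 2.27, had a median of 3.58 and was highest in fraction 2 at 4.29, and it rose by 0.29 ± 0.06 (adjusted p = 0.00398). Fezf2 and Bcl11b peaked in fraction 2 and not at the edge, while on the other side fractions 10 and 11 were close, at 1.16 and 1.13 for Fezf2 and at 3.83 and 3.69 for Bcl11b. The striatum list, 7 of whose 12 genes peaked in fraction 2, had its highest sagittal mean there. So did the marker lists of upper layer neurons, deep layer neurons and the subplate, with means of 0.22, 0.23 and 0.54. Over the sagittal fractions Fezf2 had r = 0.001 with the striatum list.

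Rorb was lowest in fraction 5 at -0.11, tied with fraction 7, had a median of 0.25 and was highest in fraction 1 at 0.81, and it rose by 0.19 ± 0.03 (limma adjusted p = 7.20e-04). Cux2 was lowest in fraction 5 at -2.03, had a median of -1.51 and was highest in fraction 1 at -0.70, and it rose by 0.18 ± 0.03 (adjusted p = 0.00393). Cux1 lay between 3.56 in fraction 6 and 4.37 in fraction 1, with a slope of 0.11 ± 0.02 (adjusted p = 0.00479). Its other probes had slopes of 0.10 ± 0.04 (adjusted p = 0.108) and 0.01 ± 0.03 (adjusted p = 0.874).

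Slide 4 held sagittal fractions 2 to 9, slide 3 held fraction 1 and slide 5 held fractions 10 and 11. With slide as a term Fezf2, Neurod6 and Cux1 lost their calls (adjusted p = 0.132, 0.103 and 0.0639) with slopes of 0.31, 0.14 and 0.08, and the other 6 genes kept theirs. Within slide 4 those 3 genes missed the threshold with slopes of 0.32, 0.14 and 0.08, as did Cux2 (slope 0.16, adjusted p = 0.0640) and Rorb (slope 0.17, adjusted p = 0.0590). Without the pooled fractions 1 and 11 Fezf2 (slope 0.36, adjusted p = 0.0584) and Neurod6 (slope 0.14, adjusted p = 0.0697) missed it.

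The mirror pairs of the sagittal series, fractions whose numbers add to 12, come closest to a repeat measurement. The SD of a single fraction, from the spread of the 5 pair differences, lay between 0.07 log2 units for Tbr1 and 0.22 for Cux2 among the 9 genes. None of the 9 genes passed the test between the sides, and 0 of the 34186 probes did (0% called) by limma or limma-trend, although 3263 had an unadjusted p under 0.05. The low-numbered fraction was higher in 5 of 5 pairs for Fezf2, by 0.30 ± 0.07 on average (adjusted p = 0.477), and in 5 of 5 for Bcl11b, by 0.26 ± 0.09 (adjusted p = 0.506). For the second Bcl11b probe it was higher in 4 of 5 pairs, with a mean of -0.17 for the high-numbered less the low-numbered fraction. By the probe that stands for each gene, the rise from fraction 6 to the mean of fractions 1 and 11 was larger than this spread. Another Cux1 probe went only from -1.10 to -1.08, with an SD of 0.12. The SD is taken about the mean difference between the sides, so it leaves out a steady offset between them.

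**Figure D3:**
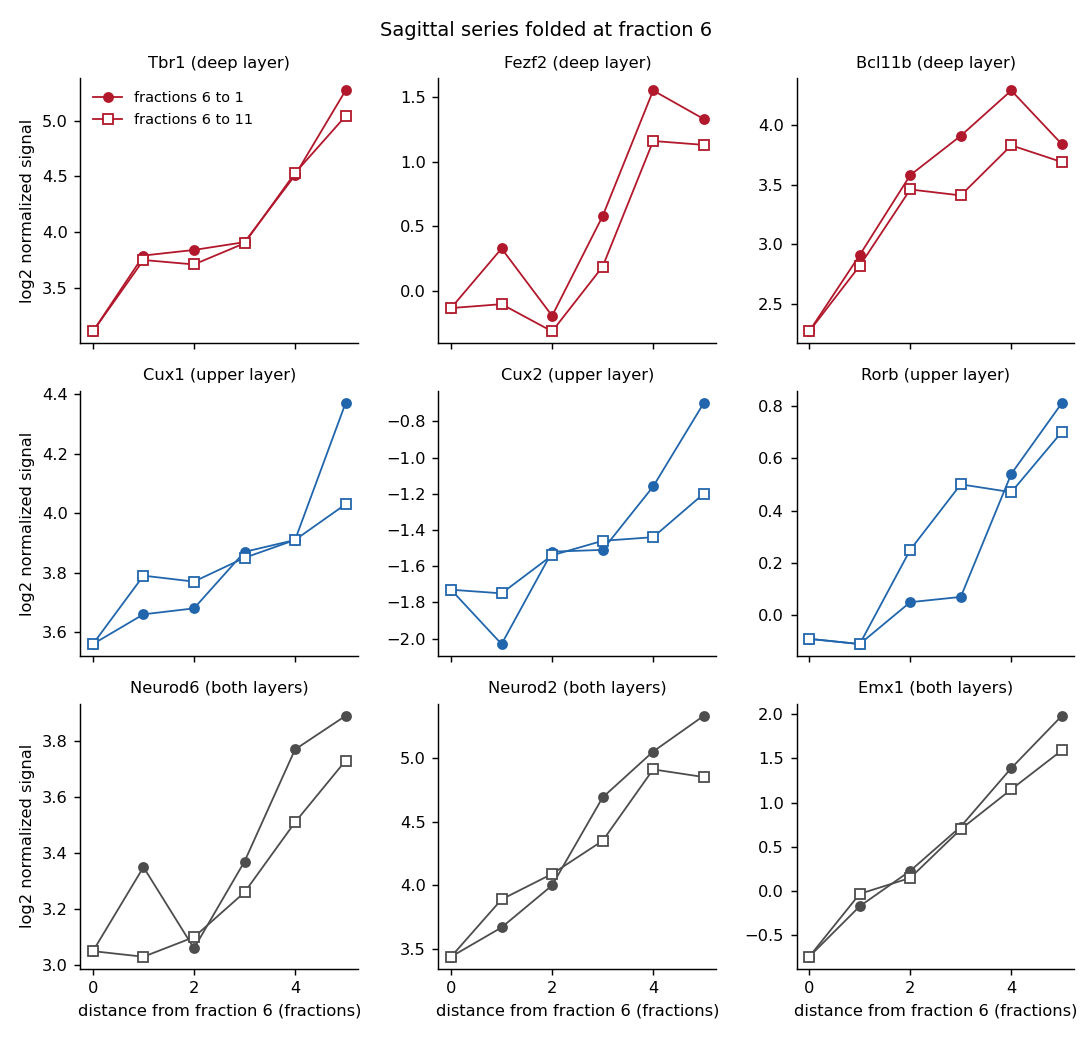
Log2 normalized signal against the distance from sagittal fraction 6, in fractions, with fractions 6 to 1 as filled circles and fractions 6 to 11 as open squares. Each panel has its own scale. All 9 genes were higher at distance 5 than in fraction 6 on both sides, and the filled circles of Fezf2 and of the main Bcl11b probe lie above the open squares at all 5 distances.

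To compare layers within the same array, each gene was centred on its median over the 34 fractions and the mean of Cux1, Cux2 and Rorb was subtracted from the mean of Tbr1, Fezf2 and Bcl11b. Any constant of an array cancels in this difference. Over the coronal fractions it was -5.43 in fraction 1, -4.50 in fraction 4, -1.08 in fraction 5 and 0.75 in fraction 13, and it was above 0 in every fraction from 9 on. Its slope was 0.45 ± 0.07 log2 units per fraction. Over fractions 5 to 15 alone the slope was 0.14, so most of the coronal difference lay between the first 4 fractions and the rest, which includes values of Fezf2 below background.

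All 9 pairs of a deep and an upper layer gene had a higher coronal slope for the deep gene. The differences ran from 0.19 for Bcl11b against Cux1 to 0.61 for Fezf2 against Rorb, each over 2 standard errors. Those of Fezf2 rest in part on its values below background. Over fractions 5 to 15 alone the slope of Fezf2, 0.04, was below that of Cux1, 0.06, and above those of Cux2, -0.01, and Rorb, -0.05. Tbr1 at 0.20 and Bcl11b at 0.19 stayed above all 3 upper layer genes there. In each plane the pairs share the same 3 deep and 3 upper genes, so they are not separate results. A steep coronal rise was not particular to deep layer genes, as Emx1 and Neurod6, of both layers, rose by 0.59 and 0.26 per fraction. In the horizontal series the mean difference was -0.99 in fraction 1 and between -0.11 and 0.12 in the other 7. Its slope of 0.08 ± 0.05 was 0 without fraction 1, so no horizontal order of the layers could be read from the mean. The pairs split by gene, with 6 positive differences for Tbr1 and Bcl11b and 3 negative ones for Fezf2, from -0.24 for Fezf2 against Cux1 to 0.34 for Bcl11b against Cux2. In the sagittal series the deep genes rose more steeply in all 9 pairs, by 0.11 to 0.25 per fraction, of which 5 were over 2 standard errors, and the slope of the mean difference was 0.17 ± 0.04. The sagittal difference was lowest at -0.55 in fraction 6 and highest at 0.63 in fraction 2.

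**Figure D4:**
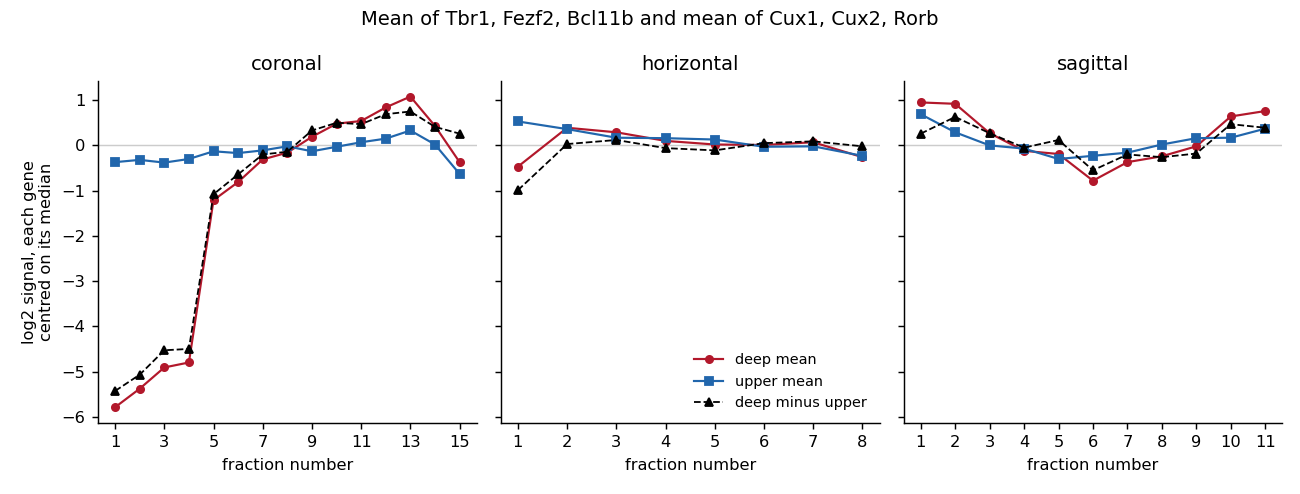
Mean of the deep layer genes, mean of the upper layer genes and their difference against fraction number, on a log2 scale with each gene centred on its median over the 34 fractions. In the coronal series the difference moves from -5.43 in fraction 1 to 0.75 in fraction 13, and in the horizontal series fraction 1 stands apart at -0.99.

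The members were also set against each other over all fractions. Of the 36 pairs 7 had a Pearson r of at least 0.85 over the 34 fractions, led by Tbr1 with Emx1 at 0.954, Fezf2 with Emx1 at 0.949 and Tbr1 with Fezf2 at 0.945. By Spearman's rho 3 pairs reached it. The 9 deep-upper pairs lay between 0.323 and 0.693 and the 3 pairs of upper layer genes between 0.294 and 0.681. The points share 1 mouse per plane, the scaling of the array and neighbouring positions, and the coronal values of Tbr1, Fezf2 and Emx1, those of the last pair partly below background, spread most widely.

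Likeness held to different degrees within the planes. Fezf2 and Neurod6 were correlated with 0.944, 0.956 and 0.959 over the coronal, horizontal and sagittal fractions. Neurod6 and Neurod2 were correlated with 0.899, 0.847 and 0.873. Tbr1 and Emx1, the closest pair over all fractions, had 0.972, -0.240 and 0.958. Bcl11b ran against Cux2 over the horizontal fractions with -0.913 and with it over the sagittal ones with 0.689. Over the sagittal fractions all 36 pairs were positive, from 0.632 for Bcl11b and Cux1 to 0.975 for Neurod2 and Emx1.

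**Figure D5:**
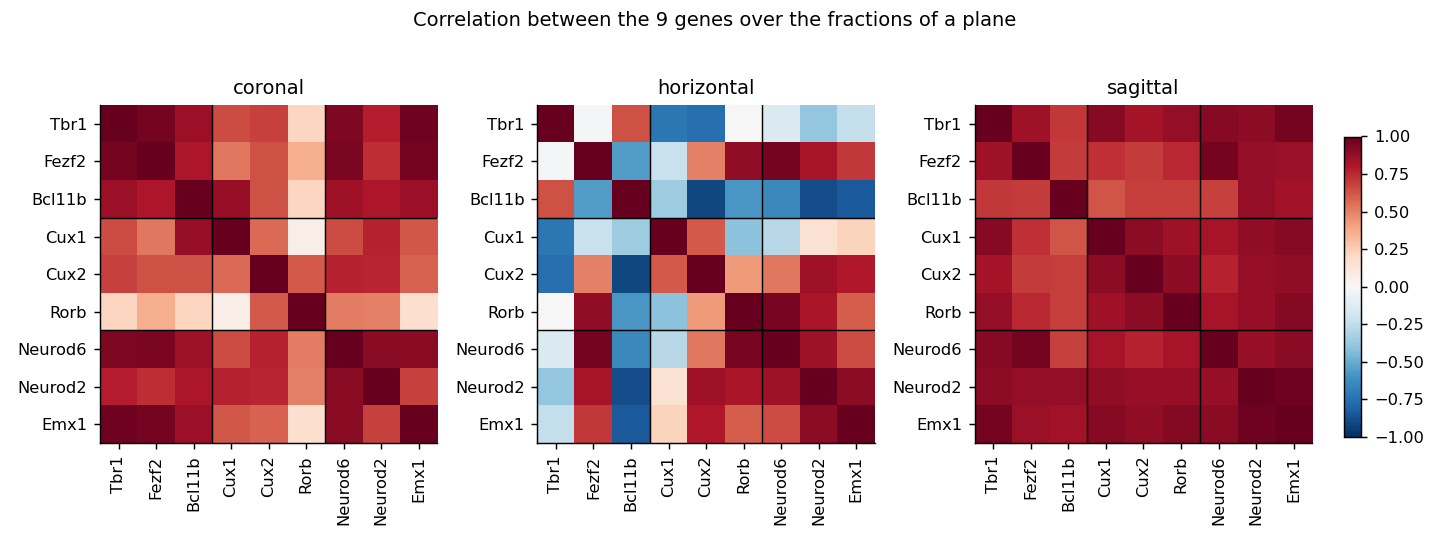
Pearson's r between the 9 genes over the 15 coronal, 8 horizontal and 11 sagittal fractions, with lines between the deep, upper and shared groups. The sagittal matrix is positive throughout, while in the horizontal matrix Bcl11b is negative with every gene but Tbr1.

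The genes most like each member were ranked over the 34 fractions among all tested probes with a gene symbol. Among the 3 genes nearest to Emx1 were Tbr1, with r = 0.954, and Mpped1, with r = 0.952. Neurod6 was most like 9130024F11Rik at 0.962. Among the 3 genes nearest to Tbr1 were Gda, a guanine deaminase, at 0.957 and Emx1 at 0.954. Fezf2 was nearest to Tbr1 by its second probe at 0.959, both being below background in coronal fractions 1 to 4, and Mpped1 was among the 3 nearest genes of Fezf2, Neurod6 and Emx1. For Bcl11b the nearest were Gng7, a G protein subunit abundant in the striatum, at 0.954, and Egr4 at 0.944. Neurod2 was nearest to 2700081O15Rik and Thra, a thyroid hormone receptor, both at 0.947.

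The upper layer genes had no neighbours as near. Cux2 was most like Dok5 at 0.887, Rorb was most like Nbea at 0.874 and Necab1 at 0.867, and Cux1 was most like Gga1 at 0.916. These 3 genes also had the narrowest ranges of the 9, of 1.73, 2.02 and 0.97 log2 units over the 34 fractions.

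Wider lists of layer genes gave mixed directions. Of 15 further upper layer genes, 8 rose and 1 fell along the coronal axis, 0 rose and 5 fell along the horizontal axis, and 5 rose and 3 fell with the sagittal distance. Of 15 further deep layer genes tested, 6 rose and 2 fell along the coronal axis, 1 rose and 1 fell along the horizontal axis, and 6 rose and 5 fell with the sagittal distance. Of all probes tested 18.9% rose and 9.44% fell along the coronal axis, 0.959% and 0.804% along the horizontal axis, and 18.3% and 9.97% with the sagittal distance. Their median coronal slopes were 0.09 and 0.07 log2 units per fraction, against 0.01 over all probes tested. Their median horizontal slopes were -0.05 and -0.01, against -0.01, and their median sagittal slopes were 0.07 and -0.02, against 0.01.

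All 5 genes of the upper layer list that fell along the horizontal axis were transcription factors, among them the POU factor Pou3f1, which fell by 0.35 ± 0.04, and the LIM factor Lhx2, which fell by 0.29 ± 0.05. Cux2 moved in the same direction as these 5 genes, which were taken because they fell. The rest of the 15 genes of the list did not pass, with horizontal slopes from -0.29 for Inhba to 0.23 for Cartpt. In the sagittal series the steepest of the upper list was Plxnd1, a semaphorin receptor, at 0.52 ± 0.03. Cartpt, a neuropeptide precursor also made outside the cortex, fell by 0.22 ± 0.03 along the coronal axis.

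In the deep layer list, Bcl6 rose by 0.19 ± 0.01 along the coronal axis and by 0.35 ± 0.03 with the sagittal distance. Ntsr1, the neurotensin receptor that marks layer VI neurons, rose by 0.17 ± 0.04 along the coronal axis, fell by 0.22 ± 0.03 along the horizontal axis and rose by 0.32 ± 0.03 with the sagittal distance. Foxp2, which is also made in thalamus and striatum, fell by 0.39 ± 0.10 with the sagittal distance, and Tshz2 fell by 0.33 ± 0.04. The horizontal fall of Ntsr1 and the rise of Syt6, by 0.19 ± 0.02, were the only calls of the deep list in that plane. The mean of the wider deep list went from -0.74 in its lowest coronal fraction to 0.18 in its highest. It went from -0.51 in fraction 4 to -0.27 in fraction 5, where Tbr1 went up by 3.92. The mean of the wider upper list spanned more, from -1.25 in coronal fraction 1 to 0.19 in fraction 10. The wider lists thus did not repeat the steeper coronal rise of the deep layer members over the upper layer members.

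The split of calls over all probes moved with the scaling. In the sagittal series 64.7% of called probes rose with the distance, 82.4% when arrays were scaled by their median and 54.6% after a normexp background correction. In the coronal series 66.6% rose, 53.0% after quantile normalization and 54.8% after normexp, and in the horizontal series 54.4% rose and 66.2% did after normexp.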

How the data were processed

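Brain fractions of 3 mice were hybridised to 34 single-colour Agilent mouse arrays on 5 slides. The authors scanned and quantified them with Agilent Feature Extraction 10.10.1.1 and deposited the spot intensity, background and flags, plus a table of log2 values (43199 probes) in which 99.92% of values match the processed signal on a log2 scale, shifted by an array constant, within 0.02. Here the processed intensity was averaged over a probe's spots and log2-transformed, and each array's 75th percentile was subtracted. Probes were named by RefSeq accession (assembly GRCm38.p6). Detection means that most spots of a probe were well above background. Slopes were fitted with limma 3.58.1 (lmFit, eBayes, Benjamini-Hochberg over 34186 probes, threshold 0.05) in R 4.3.3, with fraction 6 taken as the sagittal middle, and Python 3.11.15, numpy 2.4.6 and pandas 2.3.3 were used for the rest. Data were simulated with 200 planted slopes of 2 residual SDs per SD of position. The coronal, horizontal, sagittal distance and side tests recovered 195, 36, 148 and 2 of them. At 6 SDs they recovered 200, 200, 200 and 199, so in the simulation the horizontal and side tests found large changes only. The simulated noise was independent between fractions, and for the side test its SD was taken without the mirror pairs. These counts therefore do not give the power of the tests on the real fractions. Members and marker lists were chosen with earlier results of these data known. The genes named are the members, the 3 genes most like each, and of a list at most the 4 with the steepest significant slope per plane or those that peak in the list's fraction. The alternatives were other scalings, background corrections, filters, slides, probes and fractions. Restriction to coronal fractions 5 to 15, removal of coronal fractions 14 and 15 and another Cux1 probe were chosen after seeing the data. Results for some further genes are not reported here.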

Additional observations from a re-analysis of the deposited data

Results flagged for a closer look

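In 20 groups of values searched (the 8 horizontal fractions and the 5 sagittal pair differences of each gene and of the deep minus upper difference), 2 held a sample far from the others. The limits used give about 1 in 20 for independent values from a normal distribution. Fractions are ordered positions and the difference reuses the members, so that rate does not hold for these groups. Tbr1 was 3.72 in horizontal fraction 1, and the next lowest of the 8 fractions was 4.12. The deep minus upper difference was -0.99 in horizontal fraction 1, and the next lowest was -0.11. Both values come from the same array, and Tbr1 is part of the difference. Some marker lists also moved between horizontal fractions 1 and 2. The mean of the hindbrain list went from 1.57 to -2.74 and that of the hypothalamus list from -0.04 to -1.54, while that of the midbrain list went from 0.31 to 0.75. What sets fraction 1 apart was not tested.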

How the results depend on the processing

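No paired analysis was possible between planes because fractions of the same number in different planes are different positions in different mice. Within the sagittal series the side test was paired by mirror pair. The coronal count of 9677 called probes became 16605 without a detection filter, 251 with slide as a term, 2099 within slide 3 and 19140 with a quadratic term, and lay between 7790 and 11893 when 1 fraction was left out. The horizontal count of 603 became 1183 after normexp, 175 without a filter, 330 without slide 5 or within slide 1, 962 with slide as a term and 1124 with a quadratic term, and lay between 20 (without fraction 7) and 528 (without fraction 1) when 1 was left out; without fractions 2, 3, 4, 5, 6 and 8 it was 121, 232, 383, 252, 96 and 155. The sagittal distance count of 9666 became 2142 with slide as a term, 1950 within slide 4 and 3434 without the pooled fractions, and lay between 6491 and 9919 when 1 was left out. The side count was 0 under every setting run. The slope of the deep minus upper difference moved in the coronal series from 0.45 to 0.31 after normexp, 0.57 without Bcl11b, 0.14 over fractions 5 to 15 and 0.57 without fractions 14 and 15, and in the horizontal series from 0.08 to 0.20 without Fezf2 and -0.01 without Bcl11b. Leaving out 1 fraction gave 0.42 to 0.51 coronal, 0 to 0.11 horizontal and 0.14 to 0.20 sagittal. Member pairs at r of at least 0.85 numbered 7, and 3 by Spearman's rho.

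Of the called member slopes, 222 of 257 values under other settings kept direction and call, 31 missed the threshold and 4 changed sign, all within slide 3 (Bcl11b -0.07, Fezf2 -0.11, Neurod2 -0.07, Neurod6 -0.10). Slopes not called changed sign for Cux1 after normexp (1.4e-04 horizontal, 0.0010 side), for Cux1, Cux2 and Emx1 in the side difference without slide 5 (0.07, 0.10, 0.01), for Cux2 along the coronal axis within slide 3 (-0.05) and over fractions 5 to 15 (-0.01), and for Rorb within slide 2 (0.05) and without coronal fractions 14 and 15 (0.04). With 1 fraction left out the slopes of Cux1 lay between -0.04 and 0.02 horizontally and between -0.07 and 0.05 for the side, those of Cux2 between -0.19 and 0.01 for the side and those of Rorb between -0.02 and 0.03 along the coronal axis. Without a detection filter Bcl11b (adjusted p = 0.0596), Cux2 (0.0838) and Emx1 (0.0700) lost their horizontal calls. The causes were not tested. Signal over background limits Fezf2 and Emx1 in the first coronal fractions.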
